A study of Mus musculus with 3 samples.

Results

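TH2B peaks whose centre lay inside a protein-coding gene and more than 1000 bp from every protein-coding transcription start site (TSS) numbered 254 of the 1179 TH2B peaks of murine caudal sperm, or 21.5% (95% Wilson interval 19.3% to 24.0%). These intragenic peaks were chosen by position alone, from the peak centres and the GENCODE mouse M21 annotation of mm10. Another 436 TH2B peaks lay within 1000 bp of a protein-coding TSS, and 489 lay outside protein-coding genes. The study compared the testis-specific histone variants TH2A and TH2B in mature sperm from the cauda epididymis of BALB/c-129-E mice aged 8 to 12 weeks. Chromatin was digested with micrococcal nuclease without crosslinking (native ChIP), precipitated with a rabbit antibody to TH2B or to TH2A, and compared with mononucleosomal Input DNA of the same sperm type. There was 1 library per variant and 1 Input library, and 2 ChIP reactions were pooled into each ChIP library before sequencing. Sequencing was paired-end with 150 bp reads, and the labels put the depth at about 30000000 (TH2B, Input) and 34000000 (TH2A) unique read pairs. The labels give no treatment or mutation for any of them. Each peak is known only by its position, with no height or read count, so no test between conditions was possible, and the intervals given here cover counting error over peaks only.

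TH2B is a variant of histone H2B made in the testis, where it takes the place of canonical H2B in spermatogenic cells. Most histones are replaced by protamines as spermatids condense, and the nucleosomes that stay in mature sperm cover a small part of the genome. Retained nucleosomes of mammalian sperm have been described at CpG-rich DNA, which is typical of promoters but also of some exons and other stretches inside genes. Protein-coding exons are in general richer in G and C than the introns around them.

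The sequences of 10 intragenic peaks show what the TH2B-associated DNA looked like: those at the 6 host genes that the study tested by ChIP-qPCR, and 4 others near the median GC content or with the highest CpG content. They are reference sequence of mm10 (RefSeq GRCm38), written 5′ to 3′ on the strand of the host gene, with every CpG dinucleotide in capitals. Of peaks wider than 300 bp (Adam1a, Mxi1 and Nectin2), the central 300 bp are printed. The coding peaks come first, at Adam1a (a fertilin subunit of the ADAM family), Nectin2 (a cell adhesion molecule of Sertoli cell and spermatid junctions) and Sox30 (a transcription factor of round spermatids). The intronic peaks at Dhh (the hedgehog ligand of Sertoli cells), Hoxa9 (a homeobox factor) and Mxi1 (an antagonist of MYC) follow.
Adam1a, chr5:121519917-121520216, minus strand: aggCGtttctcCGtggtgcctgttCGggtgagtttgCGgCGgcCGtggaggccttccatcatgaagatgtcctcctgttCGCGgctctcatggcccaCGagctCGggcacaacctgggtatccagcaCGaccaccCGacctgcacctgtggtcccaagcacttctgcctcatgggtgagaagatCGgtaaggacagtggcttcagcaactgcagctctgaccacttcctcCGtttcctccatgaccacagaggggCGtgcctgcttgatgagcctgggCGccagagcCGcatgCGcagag
Nectin2, chr7:19732974-19733273, minus strand: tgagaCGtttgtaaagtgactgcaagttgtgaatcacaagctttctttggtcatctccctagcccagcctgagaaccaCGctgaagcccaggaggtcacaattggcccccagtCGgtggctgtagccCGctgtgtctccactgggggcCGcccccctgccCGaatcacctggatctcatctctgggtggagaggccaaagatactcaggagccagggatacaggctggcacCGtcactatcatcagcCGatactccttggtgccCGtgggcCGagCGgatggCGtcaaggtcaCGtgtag
Sox30, chr11:45991599-45991811, plus strand: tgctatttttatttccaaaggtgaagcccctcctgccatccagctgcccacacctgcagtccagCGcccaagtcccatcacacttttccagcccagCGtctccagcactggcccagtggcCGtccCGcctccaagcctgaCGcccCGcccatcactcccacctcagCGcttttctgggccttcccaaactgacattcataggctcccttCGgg
Dhh, chr15:98895789-98896088, minus strand: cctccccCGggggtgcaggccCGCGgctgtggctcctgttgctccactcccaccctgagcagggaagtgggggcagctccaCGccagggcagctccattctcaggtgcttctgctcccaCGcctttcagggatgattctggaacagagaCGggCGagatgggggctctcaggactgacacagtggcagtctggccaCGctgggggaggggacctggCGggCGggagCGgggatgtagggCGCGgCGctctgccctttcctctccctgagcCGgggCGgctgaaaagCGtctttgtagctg
Hoxa9, chr6:52229134-52229337, minus strand: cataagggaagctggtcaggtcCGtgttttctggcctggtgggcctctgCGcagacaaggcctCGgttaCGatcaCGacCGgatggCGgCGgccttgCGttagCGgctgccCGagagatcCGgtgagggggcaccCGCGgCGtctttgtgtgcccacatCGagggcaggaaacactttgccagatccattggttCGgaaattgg
Mxi1, chr19:53311630-53311929, plus strand: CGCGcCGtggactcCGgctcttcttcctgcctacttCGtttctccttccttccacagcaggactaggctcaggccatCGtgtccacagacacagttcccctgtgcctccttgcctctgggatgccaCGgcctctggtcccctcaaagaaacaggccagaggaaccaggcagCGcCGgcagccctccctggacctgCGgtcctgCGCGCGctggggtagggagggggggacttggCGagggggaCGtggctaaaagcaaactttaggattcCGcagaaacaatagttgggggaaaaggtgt

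The coding peak with a GC content nearest to the median lay in the last exon of Dyrk2, which encodes a protein kinase, and the coding peak of highest CpG content in the last exon of Gal3st1, the sulfotransferase that makes seminolipid. The corresponding intronic peaks lay in Sigirr, an inhibitory receptor of the interleukin-1 family, and Trim17, a ubiquitin ligase. The centre of the Sigirr peak fell in an intron of 102 bp, and 63.7% of that peak overlapped exons.
Dyrk2, chr10:118860550-118860758, minus strand: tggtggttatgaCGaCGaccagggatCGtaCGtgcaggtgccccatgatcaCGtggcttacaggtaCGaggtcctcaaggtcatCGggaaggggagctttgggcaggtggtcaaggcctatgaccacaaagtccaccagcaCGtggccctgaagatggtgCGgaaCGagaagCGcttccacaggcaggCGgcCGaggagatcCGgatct
Gal3st1, chr11:3998073-3998300, plus strand: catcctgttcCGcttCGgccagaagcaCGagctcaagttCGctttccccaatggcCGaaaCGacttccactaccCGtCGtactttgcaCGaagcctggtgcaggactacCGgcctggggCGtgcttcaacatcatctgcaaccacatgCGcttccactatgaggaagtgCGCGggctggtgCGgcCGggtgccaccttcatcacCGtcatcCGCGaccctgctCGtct
Sigirr, chr7:141092415-141092695, minus strand: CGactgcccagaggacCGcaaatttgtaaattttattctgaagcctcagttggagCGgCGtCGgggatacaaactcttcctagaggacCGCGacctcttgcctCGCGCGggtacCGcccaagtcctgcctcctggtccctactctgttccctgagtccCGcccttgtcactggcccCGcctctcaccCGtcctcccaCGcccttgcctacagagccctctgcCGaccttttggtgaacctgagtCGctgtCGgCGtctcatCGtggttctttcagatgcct
Trim17, chr11:58960265-58960466, plus strand: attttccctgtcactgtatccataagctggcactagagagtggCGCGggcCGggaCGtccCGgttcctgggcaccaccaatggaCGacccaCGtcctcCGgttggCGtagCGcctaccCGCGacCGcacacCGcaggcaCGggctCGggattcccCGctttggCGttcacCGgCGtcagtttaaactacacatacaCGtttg

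CpG dinucleotides numbered 20 in the 228 bp at Gal3st1 and 21 in the 202 bp at Trim17, but 8 in the 213 bp at Sox30. The ratio of observed to expected CpG (the CpG count over that expected from the C and G content) was 0.98 at Gal3st1, 1.10 at Trim17 and 0.49 at Sox30. GC content was nonetheless alike in these peaks, at 60.5%, 61.9% and 60.6%. The ChIP-qPCR amplicons, placed by an exact match of both primers, lay wholly inside the intragenic peaks at Dhh, Mxi1, Nectin2 and Sox30. At Adam1a, 106 of the 109 bp of the amplicon were inside the peak. That peak was coding in a transcript other than the representative one, in a place that 3 annotated protein-coding genes span, and it had 1 near-identical copy elsewhere (99.5% identity). At Hoxa9 the amplicon lay in another TH2B peak, within 1000 bp of a protein-coding TSS, and not in the intragenic peak printed here.

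Exons held 102 of the 254 intragenic peak centres (40.2%, 34.3% to 46.3%), and introns held 152 (59.8%). An exon here is an exon of any protein-coding transcript of the host gene. Of the exonic centres, 88 were in coding sequence (34.6% of all intragenic peaks, 29.1% to 40.7%), 12 in a 3′ untranslated part and 2 in a 5′ untranslated part. The same rule applied to every base of the genome leaves 993797320 eligible bases, of which 6.21% are exon and 2.96% coding sequence. The exon share of the peaks was thus 6.47 times (5.53 to 7.46) that of the eligible bases, and the coding share 11.7 times (9.81 to 13.7). These ratios were much lower at equal GC content. Against eligible windows weighted to the GC content of the peaks, in classes of 1 percentage point, the ratios were 1.39 (1.18 to 1.60) for exons and 1.52 (1.27 to 1.78) for coding sequence. In 71 of the 102 exonic peaks (69.6%) the whole peak was exon, as at Fat4, Nrip1 and Nanog. In 24 of the 152 intronic peaks, by contrast, the peak reached an exon although its centre did not.

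**Figure D1:**
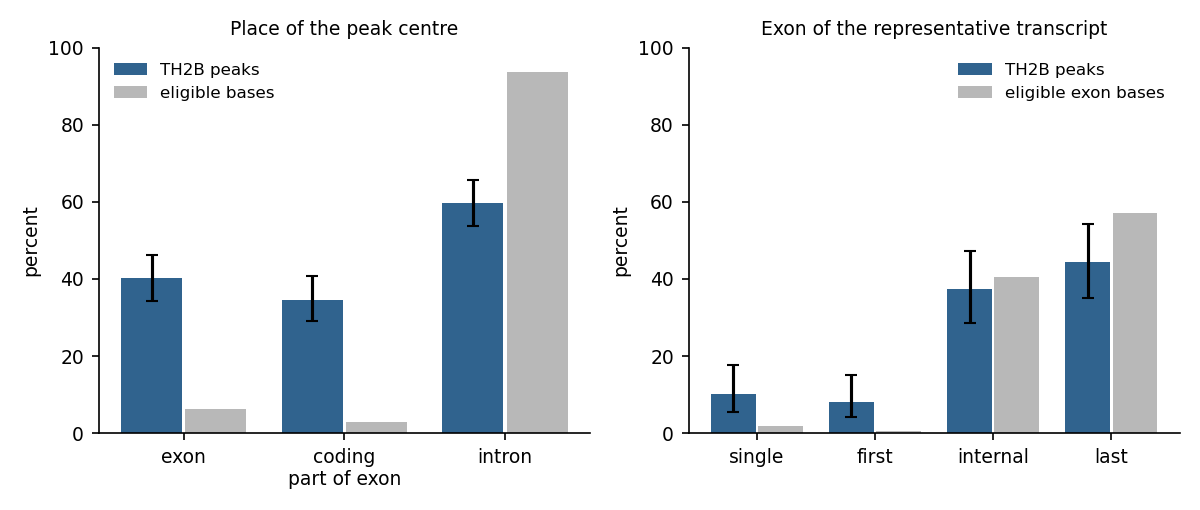
Share of the intragenic TH2B peaks (blue, with 95% Wilson intervals) and of the eligible bases (grey) by place of the centre (left, percent of 254 peaks) and, for 99 exonic peaks, by exon of the representative transcript (right, percent). Exons held 40.2% of the centres against 6.21% of eligible bases, which are not matched for GC content, and single or first exons together held more of the peaks than of the exon bases.

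Single exons (of representative transcripts with 1 exon) and long first exons held more of the exonic peaks than of the eligible exon bases. Last exons held fewer, at the limit of 1000 bp. The exon bases are not matched to the peaks for GC content. By the representative transcript of each gene (the principal isoform), 99 exonic peaks could be placed and 3 were in exons of other transcripts. Single exons held 10 of the 99 (10.1%, 5.58% to 17.6%) against 1.94% of eligible exon bases, and first exons held 8 (8.08%, 4.15% to 15.1%) against 0.564%. Since the rule removes the first 1000 bp, only first exons longer than that could hold a peak. Among the 8 were the giant cadherins Fat4 (exon of 5195 bp) and Dchs2 (1995 bp), the extracellular matrix protein Frem2 (5411 bp) and the protease Adamts5 (2665 bp). Hosts whose representative transcript has 1 exon included Ccin, which encodes the sperm head protein calicin, Amer2, Ccdc96, Maf and Pcdhb16. The annotated gene is longer than that exon at Amer2 (14939 and 10506 bp) and Maf (24853 and 6360 bp). Internal exons held 37 (37.4%, 28.5% to 47.2%) against 40.4%, which did not differ beyond the interval, and last exons 44 (44.4%, 35.0% to 54.3%) against 57.1%. At larger limits the share of last exons was within the interval. Last exons held 54.2% (42.7% to 65.2%) of peaks against 57.9% of bases beyond 2000 bp, and 60.8% (47.1% to 73.0%) against 57.8% beyond 5000 bp. First exons held 2 of 72 peaks (2.78%, 0.765% to 9.57%) against 0.204% of bases beyond 2000 bp. Beyond 5000 bp, single and first exons held 0 of 51 peaks, which allows a share of up to 5.88% for each.

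The exons with peaks were long. Their median length was 1729 bp, and for 46 of the 54 peaks in last or single exons that exon was at least 1000 bp. Each exon counts once per peak in these lengths, so that of Nrip1, with 3 peaks, counts 3 times. Last exons with a peak had a median of 2979 bp, where the median base of all last exons lies in an exon of 2757 bp. Internal exons with a peak had a median of 267 bp, compared with 124 bp over all internal exons and 162 bp for the exon of the median internal exon base. Of the 44 peaks in last exons, 34 were in coding sequence and 9 in the 3′ untranslated part. The exon was shorter than the peak in only 17 of 99 cases, for example at Wnk4, a kinase. There the centre of a 243 bp peak lay in an internal exon of 89 bp, and exon bases of any protein-coding transcript made up 43.2% of the peak.

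Long last exons carried several peaks in some genes. Nrip1, which encodes a corepressor of nuclear receptors within a single coding exon, had 3 peaks in its last exon of 7616 bp, 381 to 609 bp apart. Pairs of peaks lay in the same last exon of Dyrk2 (112 bp apart) and Vrtn (305 bp apart), and in internal exon 7 of Otop2, a proton channel (257 bp apart). Together, 218 host genes carried the 254 peaks: 195 had 1 peak, 17 had 2 and 6 had 3 or more. In 6 of the 23 genes with 2 or more peaks, at least 2 shared an exon, and in 5 they shared an intron. The closest pair was 83 bp apart, in the first intron of Nr2e1 (Tailless), a nuclear receptor of neural stem cells.

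Mroh2a on chromosome 1 had the most peaks, with 9 along its 35304 bp. They ran from exon 3 to intron 31 of 42 exons, with 4 in coding exons and 5 in introns, and gaps of 414 to 9313 bp. Their GC content, 54.1% to 57.6% in the coding peaks and 54.0% to 57.3% in the intronic ones, was below the median of all intragenic peaks. Sfi1, which encodes a centrin-binding protein of the centrosome, had 4 peaks, all intronic, toward the end of the gene at relative positions of 0.73 to 0.97. The remaining hosts of 3 or more were Nrip1, C130026I21Rik, Iqcm and Tfap2b. The 3 peaks of Iqcm lay within 1 intron and within a processed pseudogene. Of the 3 at Tfap2b, a developmental AP-2 factor, 1 lay in the first intron and 2 in the 3′ untranslated part of the last exon, 1456 bp apart.

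Distance from the start differed from that of the eligible bases as well, which here are not matched for GC content. The median distance of an intragenic peak from the nearest protein-coding TSS was 6440 bp, 4792 bp for exonic and 9065 bp for intronic peaks. The class of 1000 to 2000 bp held 60 peaks (23.6%, 18.8% to 29.2%) against 3.85% of eligible bases, and that of 2000 to 5000 bp held 45 (17.7%) against 9.48%. Beyond 100000 bp there were 13 peaks (5.12%, 3.02% to 8.56%) against 20.1% of eligible bases. All 13 were intronic (exon share 0%, 0% to 22.8%), and only 1.48% of the eligible bases of that class are exon. The exon share was 46.7% in the nearest class and 51.1% between 2000 and 5000 bp. It was 40.2% between 5000 and 20000 bp and 33.3% between 20000 and 100000 bp. In each of these classes it exceeded the exon share of the eligible bases (13.1%, 11.7%, 8.77% and 4.77%). Median CpG ratio was 0.52 in the nearest class and 0.35 in the farthest, while median GC was 60.4% and 58.7%.

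**Figure D2:**
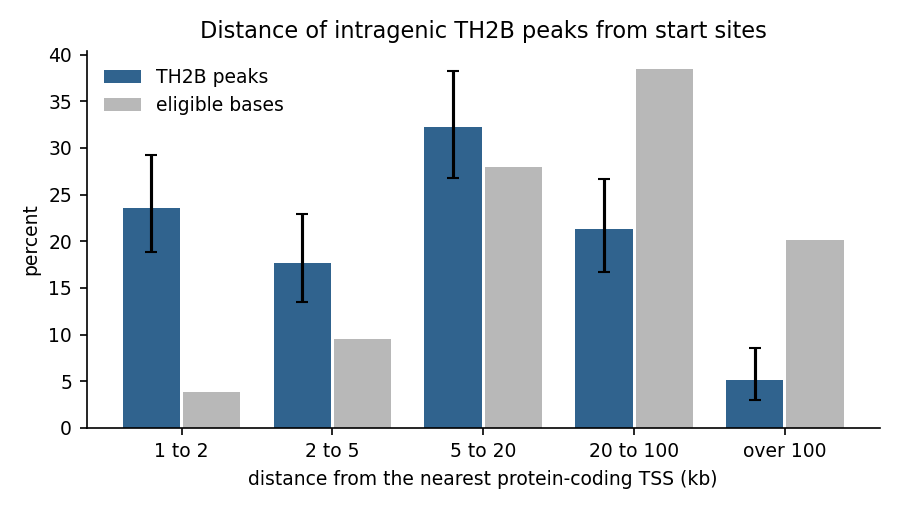
Percent of the 254 intragenic TH2B peaks (blue, with 95% Wilson intervals) and of the eligible bases (grey) by distance in kb from the nearest protein-coding TSS. The class nearest the start held 23.6% of peaks and 3.85% of bases, and the farthest held 5.12% and 20.1%. The bases are not matched for GC content.

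The 5 peaks farthest from a protein-coding TSS were all intronic. They were at Dpyd (399710.5 bp), which encodes a pyrimidine-degrading enzyme, Nav3 (290224 bp) and Asic2 (287842 bp), an acid-sensing channel. A pair in Iqcm (264019 and 263478.5 bp) completed the 5. By the nearest TSS of any transcript, however, all but Dpyd were within 1000 bp of a start. These distances were 963 bp at Nav3, 636 bp at Asic2, 194 and 734.5 bp at Iqcm, and 298074.5 bp at Dpyd. Peaks lay close to the limit of 1000 bp on both sides. Just inside it were Trim80 (1010.5 bp), Cdh13 (1020.5 bp), Eno1b (1039.5 bp), Mfhas1 (1042.5 bp) and Cacng4 (1045.5 bp). Just outside were Zbtb7c (989.5 bp), Gm5580 (986.5 bp), Cemip (974.5 bp), Rax (969.5 bp) and Gipr (959.5 bp). Both sets had coding and intronic peaks. Host genes that also had a TH2B peak at a TSS of their own numbered 14 of 218 (6.42%), against 467 of 21943 protein-coding genes (2.13%). They were the transcription factor genes Hoxa9, Hoxb3, Irx5, Nr2e1, Pax6 and Zfp991, and 4931408C20Rik, Dhx8, Eno1b, Gm9008, Hps1, Mfhas1, Rgs20 and Serpinh1. Host genes had a median length of 39826 bp, against 17284 bp over all protein-coding genes, and a longer gene has more eligible bases. The shares of genes with a peak at a TSS were not matched for gene length, number of start sites or GC content.

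Along the gene, from 0 at its start to 1 at its end, intragenic peaks had a median relative position of 0.476 (0.366 to 0.547), and the eligible bases 0.510, within that interval. Exonic and intronic peaks differed in where they lay, and the eligible bases set beside them are not matched for GC content. Exonic peaks had a median of 0.653 (0.542 to 0.754), upstream of the eligible exon bases at 0.872, and 24.5% of them were in the first of 3 equal parts of the gene, where 9.37% of the eligible exon bases are. Intronic peaks had a median of 0.339 (0.286 to 0.453), with 50% in that first part, against 31.9% of all eligible bases. Of the 135 peaks in introns of the representative transcript, first introns held 46 (34.1%, 26.6% to 42.4%) against 24.3% of eligible intron bases, among them those of Epas1, Epc2, Mmp15, Nr4a3 and Prmt8. Last introns held 14 (10.4%, 6.28% to 16.7%) against 8.36%. First-intron peaks had a median CpG ratio of 0.475 and lay at a median of 2496 bp from a protein-coding TSS. Those of later introns had 0.337 and 14702 bp.

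**Figure D3:**
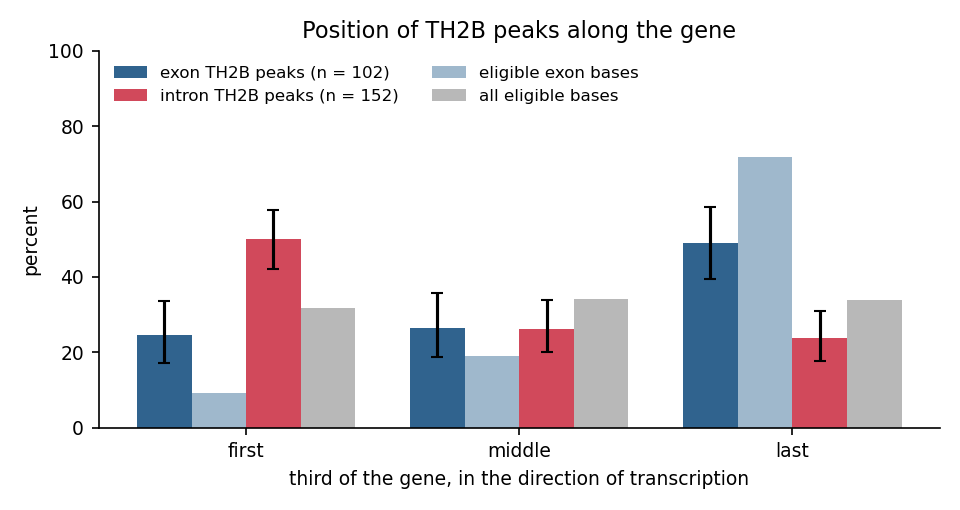
Percent of exonic (dark blue, n = 102) and intronic (red, n = 152) TH2B peaks in the first, middle and last of 3 equal parts of the host gene, with 95% Wilson intervals, beside eligible exon bases (light blue) and all eligible bases (grey). The first part held 24.5% of exonic peaks against 9.37% of eligible exon bases, and 50% of intronic peaks against 31.9% of all eligible bases. The bases are not matched for GC content.

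High GC content was shared by nearly all of these peaks, in exons and introns alike. Over the 249 peaks on assembled chromosomes, GC was 47% at the lowest, 59.8% at the median and 69.4% at the highest, where the eligible bases are 42.6% G or C. Coding peaks had a median of 60.1%, while eligible coding bases are 51.1% G or C. Intronic peaks had a median of 59.2%, while eligible intron bases are 42.3%. The richest was the peak in the first intron of Lsp1 (69.4%), a leukocyte protein that binds actin, and only 2 peaks were below 50%. TH2B peaks near protein-coding starts had a median of 61.4% and those outside protein-coding genes 57.0%, on either side of the intragenic peaks.

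The GC content was local. Each peak was set beside the windows of the same width 1000 bp up- and downstream of it, where these lay in the same gene. GC was higher in the peak in 232 of 246 cases (94.3%, 90.7% to 96.6%), with a median difference of 10.3 percentage points over flanks at 48.6%. This held for 93 of 96 exonic and 139 of 150 intronic peaks. Among the 14 exceptions were the developmental regulators Tbx1 (56.0% in the peak and 78.9% in the flanks), Irx5 (61.2% and 72.7%), Hoxc11 (65.3% and 67.4%) and Nr4a3 (57.5% and 59.4%), and Mxi1 (59.1% and 68.1%). The other exceptions were at Agap2, Cbln1, Cdk5r2, Gm20388, Kif27, Misp, Myo5b, Sfi1 and Tmeff1. Within exons, the peak was richer than the rest of its own exon in 67 of 74 cases with at least 200 bp of exon beyond the peak (90.5%, 81.7% to 95.3%). There the median was 60.1% in the peak and 52.9% in the rest of the exon. At Plppr4, a lipid phosphatase-related protein, the peak in the last exon was 60.4% G or C and the rest of that exon 40.5%. At Nanog, the pluripotency factor, these values were 59.1% and 41.7%.

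**Figure D4:**
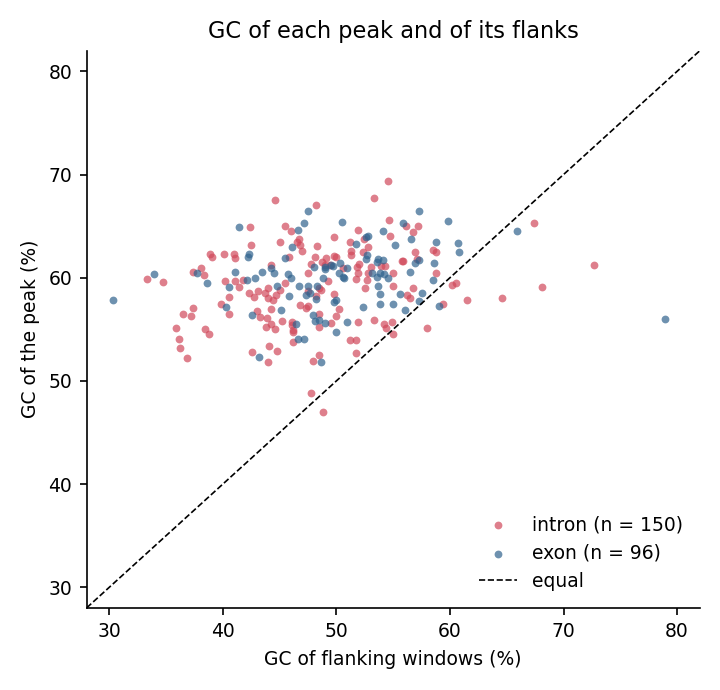
GC content in percent of each intragenic TH2B peak (vertical axis) and the mean of its flanking windows of the same width in the same gene (horizontal axis), with exonic peaks in blue (n = 96) and intronic peaks in red (n = 150). Of the 246 points, 232 lie above the dashed line of equal values.

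The exon share was therefore also read within classes of GC content, against all eligible windows of 234 bp (the median peak width) tiled along the genome, a comparison added after the values were seen. Of these windows, 62.0% were below 45% GC and held 0 peaks, while windows of 60% to 65% GC, 0.764% of all, had 107 peaks (43.0%), or 330 per 100000 windows. In the class of 60% to 65%, 47.7% of the peaks were exonic (38.4% to 57.0%), and so were 37.2% of the windows, just under the interval of the peaks. In the class of 55% to 60%, the shares were 36.3% of peaks (27.6% to 45.9%) and 20.1% of windows. In the class of 50% to 55% they were 20.8% of 24 peaks (9.24% to 40.5%) and 8.91% of windows. From 65% up, the exon shares were 42.9% of 14 peaks (21.4% to 67.4%) and 41.6% of windows, and the coding shares 28.6% (11.7% to 54.6%) and 36.9%. Over all peaks and windows of at least 55% GC, the ratio of exon shares was 1.80 (1.53 to 2.07) and that of coding shares 2.05 (1.72 to 2.42). In that range the windows lie lower in GC content than the peaks. With each window class weighted by its number of peaks, 27.5% of windows were exonic in classes of 5 points and 28.7% in classes of 1 point, against 39.8% of the 249 peaks (33.9% to 45.9%), a ratio of 1.45 (1.23 to 1.67) or 1.39. The lists give no Input signal at these places, so the response of sequencing or of nuclease digestion to GC content was not tested.

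**Figure D5:**
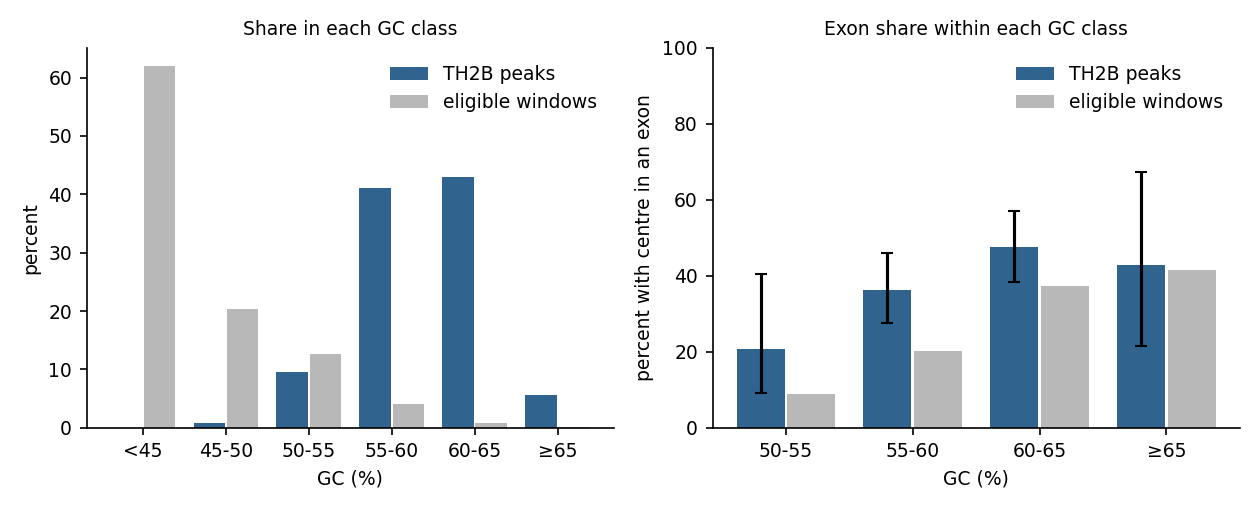
Left, percent of 249 intragenic TH2B peaks (blue) and of eligible 234 bp windows (grey) in each class of GC content in percent; right, percent of the peaks (with 95% Wilson intervals) and of the windows in each class whose centre was in an exon. Peaks fell mostly between 55% and 65% GC, and within the class of 60% to 65% the exon shares were 47.7% and 37.2%.

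CpG content varied far more between peaks than GC content. The ratio of observed to expected CpG had a median of 0.457 and ran from 0 to 1.12, with a median count of 9 CpG per peak and 10 peaks with none. Coding peaks had a median of 0.517 against 0.404 over eligible coding bases, and intronic peaks 0.423 against 0.187 over eligible intron bases. The peak exceeded its flanks in 181 of 246 cases (73.6%). A GC content over 50% with a CpG ratio over 0.6, as in CpG islands, was met by 66 of 249 intragenic peaks (26.5%, 21.4% to 32.3%). The share was 59.3% (54.6% to 63.8%) for TH2B peaks near protein-coding starts and 18.2% (14.9% to 22.0%) for those outside genes. The highest value, 1.12, was at a peak in the 3′ untranslated part of Cbln1, which encodes a secreted synaptic organiser. It was 0.95 in the first intron of Epc2, a chromatin protein of acetyltransferase complexes, 0.89 in an intron of Hoxa9 and 0.89 in the last exon of Scn8a, a neuronal sodium channel. At the other end, the coding peak of Akna, an AT-hook protein, had none in 200 bp.

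Repeat-masked bases, whose class of repeat was not read, were scarce in the peaks. No base was repeat-masked in 136 of 249 (54.6%), and at least 50% of the bases were in 14 (5.62%), 0 of them among the 99 exonic peaks. Of the eligible bases, 28.1% are masked. Some intronic peaks were nevertheless in multi-copy DNA. A near-identical copy elsewhere in the assembled genome (identity of 95% or more across 80% or more of its length) was found for 37 of 249 intragenic peaks (14.9%, 11.0% to 19.8%), below the 24.1% over all TH2B peaks. Such a copy was found for 8 of 99 exonic and 29 of 150 intronic peaks, and reads from such places cannot be assigned to one copy with certainty. The fully masked peaks in introns of Gpc5, Mansc4 and Cfap161 had at least 419, 379 and 342 copies. These are lower bounds, since the search kept a limited number of matches per chromosome. Of the 29 intronic peaks with a copy, 12 had no masked base, among them those in Ttc7b (9 copies), Arfgef2 (16) and Tcf7l2 (5).

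Other transcripts crossed some of these peaks. Of the 152 intronic peaks, 8 had their centre in a processed pseudogene, a retrocopied messenger RNA without introns, at 6 pseudogenes, and 4 of the 8 had a near-identical copy. They included the 3 peaks of Iqcm, which lie in Gm7901, and the peak in the first intron of Zfp804b, which lies in the tubulin pseudogene Tubb4b-ps1. In all, 37 intragenic peaks (14.6%) had their centre also in a gene that is not protein coding, and 56 (22.0%) were within 1000 bp of the TSS of some transcript other than a protein-coding one. The centre fell in more than 1 protein-coding gene in 13.

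Overlap with TH2A was rare here, as it was over all TH2B peaks. The study reported far fewer TH2A peaks than TH2B peaks, which limits the share of TH2B peaks that can overlap. Of the 254 intragenic peaks, 8 (3.15%, 1.60% to 6.09%) shared at least 1 bp with a TH2A peak, and the 5.68% over all TH2B peaks lay within that interval. The share was 1.15% (0.491% to 2.66%) near protein-coding starts and 11.0% (8.56% to 14.1%) outside genes. All 8 were intronic, and 0 of the 102 exonic peaks overlapped, which allows a share of up to 2.94%. The 8 were 3 peaks of Sfi1, 2 of C130026I21Rik, 1 of Mroh2a, 1 of Dnah14, an axonemal dynein heavy chain, and 1 of 4931408C20Rik. Sfi1, C130026I21Rik and Mroh2a account for the 6 that lay in dense groups (runs of 5 or more TH2B peaks with gaps under 200 kb). Without the peaks in dense groups the share was 0.889%.

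Among the gene lists, homeobox and paired box genes and other developmental transcription factors held a larger share of intragenic peaks than of eligible bases. These shares were not compared within classes of GC content. Homeobox and paired box genes were hosts at 8 of 109 genes (7.34%, against 0.993% of all 21943 protein-coding genes), with 10 peaks, 3.94% of all (2.15% to 7.09%) against 0.280% of the eligible bases. The hosts were Hoxa9, Hoxb3, Hoxc11, Irx5, Lhx2, Msx1, Pax1 and Pax6. Of the 10 peaks, 8 were intronic, as at Lhx2 (67% GC, CpG ratio 0.80), a factor of forebrain and limb development, and in the first intron of Hoxc11 (65.3% GC, 0.43). Hoxb3 had 2, at 64.4% and 62.5% GC with CpG ratios of 0.68 and 0.87, and the coding exceptions were exon 2 of Pax1 (57.2% GC) and the last exon of Msx1 (64.6% GC, 0.66). Other developmental transcription factors were hosts at 8 of 154 genes, with 9 peaks (3.54%, 1.88% to 6.60%) against 0.910% of bases. These were Foxk1, Gata3, Nr2e1, Nr4a3, Sox30, Tbx1, Tbx5 and Tcf7l2. The peak of Tbx5, a T-box factor of heart and forelimb, was 430 bp wide in coding sequence of the last exon, 47264.5 bp from a protein-coding TSS. That of Gata3, a factor of T cells and the inner ear, was in intron 2 (63.8% GC).

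Protocadherins and cadherins were hosts at 6 of 99 genes, and 5 of the 6 peaks were exonic (2.36% of peaks, 1.09% to 5.06%, against 1.14% of bases). The extracellular part of many protocadherins is encoded by a long exon, and the peaks of Fat4, Pcdh20, Pcdha2, Pcdhb16 and Pcdhga10 lay in exons of 2501 to 5225 bp, whereas that of Cdh13 was in its first intron. The name patterns of this list do not take the cadherin Dchs2, which had a further coding peak. Ion channels were hosts at 7 of 158 genes with 8 peaks (3.15%, 1.60% to 6.09%, against 1.87%), 2 of them exonic. Kinesins, myosins and dyneins were hosts at 4 of 85 genes (Kif19a, Kif27, Myo15 and Myo5b), and UDP-glucuronosyltransferases at 1 of 22 (Ugt1a1, last exon). The peaks of Pcdha2, Pcdhb16, Pcdhga10 and Ugt1a1 lay in gene clusters where 2, 4, 18 and 9 annotated protein-coding genes span the same base. For these lists the interval of the share of peaks included the share of bases, except for UDP-glucuronosyltransferases, whose 1 peak stands against 0.0424% of bases.

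In the remaining lists, germ cell genes among them, the share of peaks did not differ from the share of bases beyond its interval. Meiosis genes, such as those of the synaptonemal complex, were hosts at 0 of 30 by the list used here, and 0 of 254 peaks allows a share of up to 1.18% where the list holds 0.136% of eligible bases. Genes of the sperm axoneme and cilium were hosts at 3 of 96 (3.12%, with 1.18% of peaks against 0.860% of bases), at Cfap161, Dnah14 and Dnah8, all in introns. Chromatin regulators were hosts at 1 of 95 (Kdm2b, a demethylase that binds CpG islands), extracellular matrix genes at 2 of 83 (Adamts5 and Col23a1) and C2H2 zinc finger genes at 4 of 465 (Zfp366, Zfp804b, Zfp988 and Zfp991). Receptor families in gene clusters, such as olfactory receptors, were hosts at 1 of 1478 (Vmn2r32).

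Of the 77 genes that the study names for TH2B, 26 hosted an intragenic peak. These genes were picked by the study from these same peaks, so their presence is no independent evidence. Of its 23 spermatogenesis genes, 9 were hosts. Coding peaks were at Ccin (single exon, 55.6% GC), Neurl1a (exon 3, 60.6%), Nectin2 (exon 3, 60.1%) and Sox30 (exon 4, 60.6%), and intronic ones at 1110017D15Rik (470 bp wide), Dhh (67.7% GC), Hps1, Kdm2b and Ndc1. Ndc1, a nucleoporin, is also the 1 host among the 9 genes of the study's meiosis list. Of its 10 genes of embryonic lethality, 4 were hosts: Epas1 (a hypoxia-inducible factor), Epc2, Lmbrd1 (a lysosomal cobalamin exporter) and Msx1. Of 21 embryo development genes shared with human sperm, 10 were hosts. Among them, the peaks of Msx1, Spry2 (an inhibitor of receptor tyrosine kinase signalling) and Tbx5 were coding and in the last exon, and that of Osr1 was coding in exon 2. The peak of Spry2 was 402 bp wide, with 57.2% GC in the peak and 42.3% in the rest of the exon. The peaks of Epas1, Nr4a3, Pcsk6 and Tcf7l2 were intronic, and Pax1 had 1 of each kind.

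The peaks were narrow and alike in width. The median was 234 bp, 50% lay between 206 and 290 bp, and 200 bp was the narrowest. The widest were at Cbln1 (535 bp), Immp2l (477 bp), 1110017D15Rik (470 bp), Arid5b (467 bp, coding) and Prmt8 (454 bp). Exonic peaks had a median of 240 bp and intronic peaks 230 bp. By chromosome, chromosome 11 held 32 of the 254 (12.6%, 9.07% to 17.2%) against 5.44% of eligible bases. Chromosome 1 held 29 (11.4%, 8.07% to 15.9%) against 7.46% and chromosome 8 held 22 (8.66%, 5.79% to 12.8%) against 5.10%. Mroh2a alone held 9 of the 29 on chromosome 1, all in a dense group, and the shares were not recomputed without dense groups. Chromosome X held 0, which allows a share of up to 1.18%, with 4.36% of eligible bases and 8 TH2B peaks of other kinds. These chromosomes are named for the highest and lowest counts, after the values were seen. The shares of eligible bases take no account of the copy number of a chromosome in sperm or of its GC content. On unplaced sequences there were 5 intragenic peaks.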

How the data were processed

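Native ChIP-seq of TH2A, TH2B and Input was done by the authors on caudal sperm. Per the labels and the study's methods, reads were trimmed with Trimmomatic, aligned to mm10 with BWA and SAMtools, and peaks were called with MACS2 2.1.3 against Input on libraries that pooled 2 ChIP reactions. The deposited lists hold only the chromosome, start, end, width in bp and name of each peak, with no height, count or p-value, so depth behind a single peak is unknown. The Input library had no peak list and was not analysed here. A peak was placed by its centre in GENCODE M21 (mm10). The host gene was the one with an exon at the centre, else the one with the nearest TSS. Exon numbers follow the APPRIS principal transcript, then the longest coding sequence. Eligible bases, those that obey the same rule, were counted exactly.

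Sequence came from RefSeq GRCm38 with its repeat masking, for assembled chromosomes only. Copies were searched with BLAST 2.17.0 (word size 28). Python 3.11 with numpy 2.4.6 and scipy 1.17.1 gave 95% Wilson intervals for shares. Intervals of medians are 95% intervals from the binomial distribution of ranks. The share that a count of 0 allows is 3 divided by the number of peaks, which is below the upper Wilson limit. With 1 library per variant no test was run. The placement was tested on data with known answers: 100% of 4000 peaks in 300 made-up genes were placed as planted. Genes are named where they are hosts of a listed gene group or are named by the study, have 3 or more peaks, or hold the 5 widest, 5 farthest or limit peaks; other examples were chosen after their values were seen, and some host genes that the rule takes are not reported here. The peaks, lists and comparisons were chosen with earlier results of these data known. Alternatives covered the TSS limit, the annotation, the exon rule, merged peaks, dense groups and copies.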

Additional observations from a re-analysis of the deposited data

How the results depend on the processing

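Of 109 alternative values computed over 11 results, 97 stayed within the interval of the value given in the report, or within 1.5 times a count. The distance limit moved most. With a limit of 5000 bp there were 149 intragenic peaks in 124 host genes, 34.2% in exons, 28.2% in coding sequence, 60.8% of exonic peaks in the last exon and 0% in the first exon, and a median relative position of 0.592. With 2000 bp, 2.70% of exonic peaks were in the first exon and the median relative position was 0.574, and with 500 bp it was 0.339. Counting any exon overlap of at least 1 bp raised the exon share to 49.6%. Leaving out the peaks in dense groups lowered the overlap with TH2A to 0.889%. With comparators chosen after seeing the data, the ratio of exon shares was 1.80 against windows of at least 55% GC, and 1.45 or 1.39 against windows weighted to the GC content of the peaks in classes of 5 points or 1 point. No paired analysis was possible because each variant has 1 library. The limits are that peaks have no height or count, that intervals cover counting error over peaks that are not all independent (several share a gene or an exon), that each library pools 2 reactions, and that Input coverage at these places was not analysed here.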

Other observations

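Some host genes of developmental note fell outside the gene lists and were picked after their values were seen. Nanog had a coding peak in its last exon, chr6:122713181-122713395, 215 bp wide and 5720 bp from a TSS. Further homeobox genes that the name patterns of the list do not take were Bsx, with a peak of 66.5% GC and a CpG ratio of 0.92 in exon 2, Isl2, in intron 5, and Mkx, in exon 2. Signalling genes with a peak in an exon included Wnt3a (3′ untranslated part of the last exon), Fgfr4 (exon 10, 60.5% GC) and Ephb3 (exon 3, CpG ratio 0.83). In Kcnq1, a potassium channel gene of an imprinted domain, the peak lay in intron 11, inside the antisense transcript Kcnq1ot1, with 55.4% GC and a CpG ratio of 0.69. It was 164033 bp from a protein-coding TSS but only 420 bp from the nearest TSS of any transcript. These are values of single peaks in 1 library, and no test was run on them.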
